A study of Mus musculus with 6 samples.

Results

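The genes described here are 10 mouse genes that encode the main building blocks of the cell's skeleton: the cytoplasmic actins Actb and Actg1, the alpha-tubulins Tuba1a, Tuba1b and Tuba1c, the beta-tubulins Tubb2a, Tubb4b and Tubb5, the intermediate filament protein Vim (vimentin) and the actin-monomer-binding peptide Tmsb4x (thymosin beta 4). They were found by gene name in a table of raw read counts that holds 49315 genes, and all 10 were present and passed the filter on low counts that left 24382 genes for the test. The study measured RNA in hepatocytes of male C57BL/6J mice that overexpressed the microRNA miR-206 and in control hepatocytes, with 3 libraries per group. The design text describes 3 mice that were 8 weeks old when they received the plasmid pT3-TTR-miR-206-IRES-GFP (20 µg) by hydrodynamic injection, which drives DNA into the liver with a large fast volume. A plasmid with the Sleeping Beauty transposase (0.8 µg) went in with it and inserts the first plasmid's cassette into the genome. The TTR (transthyretin) promoter, active in hepatocytes, drove miR-206 and GFP together. Livers were perfused 4 weeks later and the cells were sorted by flow cytometry. By the design text the control group is the GFP-negative cells and the miR-206 group the GFP-positive cells of these injected livers, whereas the sample labels give the controls the genotype Wild-type and the treatment Empty vector, and the miR-206 libraries the genotype miR-206 overexpression and the treatment miR-206. Both readings put the same 3 libraries in each group. The label for age gives 8 weeks, the age at injection in the design text.

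Actin monomers polymerise into filaments that carry the cell cortex, the bile canaliculus and contractile bundles, and alpha- and beta-tubulin pair into the subunits of microtubules, along which hepatocytes move vesicles and secreted proteins. Thymosin beta 4 holds actin monomers in reserve. Vimentin filaments are typical of mesenchymal, endothelial and blood-derived cells, whereas hepatocytes build their intermediate filaments from the keratins Krt8 and Krt18. A microRNA binds messenger RNAs mainly through its seed, bases 2 to 8, and lowers their stability or translation, most often through sites in the 3′ untranslated region (UTR).

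The sequences below show the overexpressed microRNA and the one member with a match to its seed. Both are written 5′ to 3′; capitals mark the seed in the microRNA (RefSeq, GRCm38.p6, chr1:20679055-20679076, plus strand) and the match in the UTR of Tmsb4x.
mmu-miR-206-3p: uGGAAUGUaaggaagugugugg
Tmsb4x 3′ UTR site: aatatgcactgtACATTCCAcgagcattgc
The Tmsb4x match is of the type called 8mer (the 7 letters ACATTCC followed by A). It starts at base 29 of a 408-base UTR, at chrX:167207465-167207472 on the minus strand (GRCm38, GENCODE M21 annotation). The longest annotated 3′ UTRs of the other 9 members, 101 bases long in Tuba1c to 1061 bases in Tubb5, did not contain the letters ACATTCC. Among all 20874 genes of the table with an annotated UTR, 10.1% contained a seed match and 3.82% an 8mer. A match of letters is a description and does not show binding.

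Total counts were 8966590, 15244017 and 14071679 in control libraries 1, 2 and 3 and 4157947, 4939030 and 5724329 in miR-206 libraries 1, 2 and 3. Every control library was thus deeper than every miR-206 library. The mouse gene Mir206 was listed at 0 counts in all 6 libraries, which allows up to 3 counts in each, and the plasmid's transcript was not analysed here, so the labels were not checked against the overexpressed microRNA. Mitochondrial transcripts took 9.16% to 36.0% of the control counts and 11.2%, 63.8% and 48.7% of the miR-206 counts. Hepatocyte markers were present in every library: 20 such genes summed to 87381, 208402 and 206405 CPM (counts relative to library size, scaled by TMM factors) in the controls, compared with 65063, 24700 and 42810 CPM in the miR-206 libraries. Control library 1 stood apart from the other 2 controls, with correlations over genes of 0.854 and 0.856 against 0.965 between libraries 2 and 3. A background level was taken from 1915 olfactory and vomeronasal receptor genes, which serve smell and pheromone sensing. Their counts per kilobase of exon (kb) were 3.08, 1.45 and 1.27 in the controls, compared with 5.50, 3.73 and 5.45 in the miR-206 libraries. Spread over all genes by exon length, that level made up 1.25% to 6.65% of the nuclear-encoded counts in the controls, compared with 18.5% to 25.9% in the miR-206 libraries.

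All 10 members were lower in the miR-206 libraries. Their summed counts were 11333, 18374 and 16647 in the controls, compared with 1014, 753 and 1067 in the miR-206 libraries, which is 0.118% to 0.126% and 0.0152% to 0.0244% of all counts. Each of the 10 fell at an adjusted p under 0.05 (edgeR quasi-likelihood test, Benjamini-Hochberg adjustment over all 24382 genes) and none rose. Among all genes tested, 29.6% fell and 25.8% rose. The members' median log2 fold change was -3.53, against 0.45 for all genes tested. For none of the 10 did the groups overlap in CPM, a pattern with miR-206 lower that 30.3% of all tested genes showed. The 10 genes were proposed with results of these data known, so their count is a description of these genes. In sorted bulk samples, fewer cells of a type and less RNA per cell cannot be told apart. Where nothing ties the libraries to separate mice, p-values measure the spread between these 6 libraries, although by the design text the same 3 mice gave both cell fractions.

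**Figure D1:**
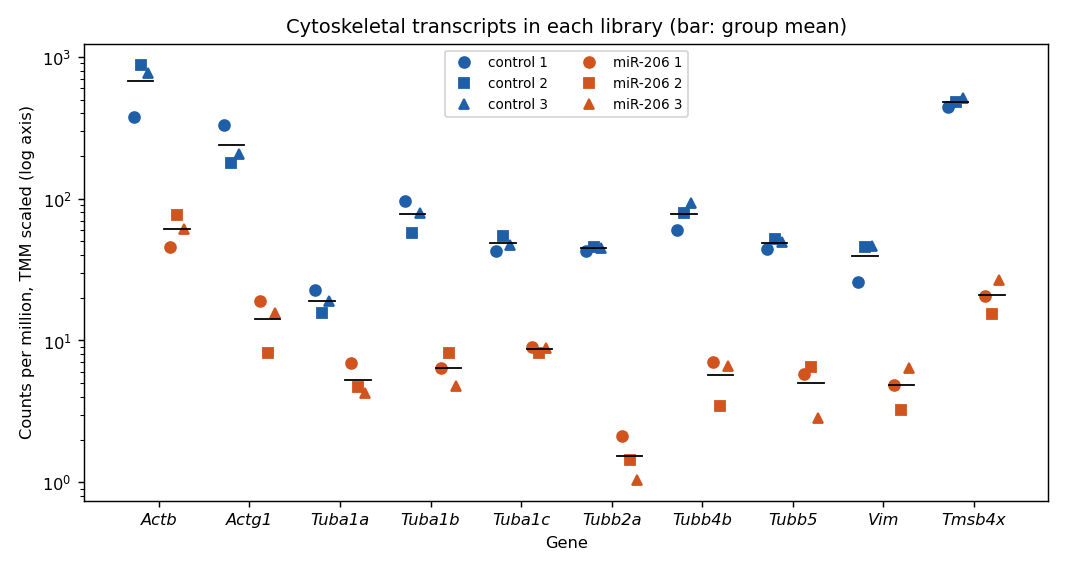
Level of each of the 10 genes in each of the 6 libraries, in CPM on a log axis; points are libraries, coloured by group, and bars are group means (n = 3). For every gene the 3 miR-206 libraries lie below the 3 control libraries, with Tuba1a closest (15.7 in control 2 against 6.89 in miR-206 library 1).

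Actb, which encodes beta-actin (chr5:142903115-142906754, minus strand), had 374, 879 and 773 CPM in control libraries 1 to 3 and 45.5, 76.8 and 61.2 in miR-206 libraries 1 to 3. The lowest control, library 1, was still above the highest miR-206 library. The mean fell from 675 ± 266 to 61.2 ± 15.6 CPM (SD, n = 3), a log2 change of -3.47 ± 0.55 (SE; edgeR adjusted p = 0.000756).

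Actg1, which encodes gamma-actin, the second cytoplasmic actin (chr11:120345690-120348542, minus strand), had 330, 180 and 205.985 CPM in the controls, compared with 18.9, 8.11 and 15.7 in the miR-206 libraries. Here control library 1 was the highest of the controls, the reverse of its place for Actb. The log2 fold change was -4.06 ± 0.53 (SE; edgeR adjusted p = 0.000353), from a mean of 238 ± 80.2 to 14.2 ± 5.55 CPM (SD, n = 3).

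Tmsb4x (chrX:167207093-167209315, minus strand), the member with the 8mer shown above, had 444, 480 and 510 CPM in the controls, a narrow range. The miR-206 libraries had 20.6, 15.3 and 26.7 CPM. The mean was 22.9-fold higher in the controls, 478 ± 33.0 against 20.9 ± 5.71 CPM (SD, n = 3), and the log2 fold change was -4.52 ± 0.51 (SE; edgeR adjusted p = 0.000281). Tubb2a, with no seed match, had the larger fitted fold change, so Tmsb4x was second among the 10 in size.

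The 3 alpha-tubulin genes lie close together on chromosome 15 (Tuba1b at chr15:98931425-98934565 and Tuba1a at chr15:98949837-98953703, both minus strand, and Tuba1c at chr15:99029891-99038110, plus strand). Tuba1b, the most abundant of them in the controls, had 96.5, 57.5 and 78.6 CPM there and 6.39, 8.11 and 4.80 CPM in the miR-206 libraries, a log2 change of -3.59 ± 0.40 (SE; edgeR adjusted p = 0.000281). Tuba1c had 43.1, 54.7 and 47.3 CPM in the controls, compared with 9.02, 8.11 and 8.82 in the miR-206 libraries. Its miR-206 values were the most uniform of the 10 genes, 8.65 ± 0.480 CPM (SD, n = 3), and its log2 fold change was -2.48 ± 0.31 (SE; edgeR adjusted p = 0.000329). Tuba1a, known as the main alpha-tubulin of developing neurons, was the lowest of the 3, with 22.6, 15.7 and 19.0 CPM against 6.89, 4.69 and 4.28. It had the smallest change of the 10 members, -1.85 ± 0.33 (log2 fold change ± SE; edgeR adjusted p = 0.00141).

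Of the beta-tubulins, Tubb2a (chr13:34074274-34078007, minus strand) had the largest fitted change of the 10. Its levels were 42.9, 45.8 and 45.0 CPM in the controls, compared with 2.13, 1.44 and 1.04 in the miR-206 libraries, from 328 to 445 counts down to 17, 8 and 8 counts. The log2 fold change was -4.84 ± 0.39 (SE; edgeR adjusted p = 0.000271). Tubb4b (chr2:25222160-25224702, minus strand), a widely used isotype also found in cilia, had 60.5, 79.4 and 93.0 CPM against 7.02, 3.42 and 6.61, a log2 change of -3.76 ± 0.42 (SE; edgeR adjusted p = 0.000281). Tubb5 (chr17:35833921-35838306, minus strand), another widely used isotype, had 44.4, 52.0 and 49.1 CPM against 5.76, 6.49 and 2.85, with a log2 change of -3.27 ± 0.39 (SE; edgeR adjusted p = 0.000299). Its lowest miR-206 library, library 3, had 22 counts.

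Vim (chr2:13573927-13582826, plus strand) had 25.8, 45.6 and 46.3 CPM in the controls, compared with 4.89, 3.24 and 6.36 in the miR-206 libraries, with a log2 change of -3.01 ± 0.39 (SE; edgeR adjusted p = 0.000353). Marker genes of several cell types that use vimentin were followed in the same libraries, where 29.6% of all genes tested fell and 25.8% rose. All 10 Kupffer cell markers (liver macrophages; Clec4f, C1qa and others) fell, and their sum was 342, 1543 and 1470 CPM in the controls; the miR-206 sums were 43.1 to 55.3 CPM. All 9 sinusoidal endothelial markers fell as well, from sums of 536 to 563 CPM to sums of 114 to 122 CPM. For stellate cells, the pericytes of the liver, 5 of 9 markers fell and 4 did not pass, with sums of 279 to 857 CPM against 109 to 128 CPM. Platelets, rich in thymosin beta 4, had marker sums of 18.1 to 25.2 CPM and 3.78 to 8.04 CPM, and 2 of 3 tested platelet markers fell. Lymphocyte markers did not move one way: 2 of 7 tested fell and 2 rose, and their sums were 71.9 to 81.3 CPM and 70.1 to 80.8 CPM. In the miR-206 libraries 5 of the 8 listed were under 3 times the background, so similar sums do not show an unchanged lymphocyte signal. Of the neutrophil markers 2 of 5 fell, and of the red cell markers 1 of 5 fell. No marker on these lists was at 0 in all miR-206 libraries. Under 3 times the background there were 5 of 10 Kupffer, 5 of 9 endothelial, 5 of 9 stellate, 3 of 4 platelet and 2 of 5 neutrophil markers, and no red cell marker. Hepatocyte markers moved too: 13 of 20 fell and none rose, with a median log2 fold change of -2.10. Single hepatocyte markers ranged from -5.33 (Tdo2) to -0.36 (Fgb). The median was -4.81 for the Kupffer, -2.35 for the sinusoidal endothelial and -1.56 for the stellate markers. It was -1.65 for the platelet, -0.58 for the neutrophil, -0.13 for the lymphocyte and -0.89 for the red cell markers. All these values are on the TMM scale, and changes relative to the hepatocyte markers were not tested for these lists. The part of these cell types in the values of Vim, Actb and Tmsb4x was not tested.

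Compared per kb of exon, so that long and short genes are on one scale, the order of levels in the controls was Tmsb4x (349 CPM per kb), Actb (252), Actg1 (89.7), Tuba1b (41.4), Tubb4b (37.2), Tubb2a (27.7), Tuba1c (21.1), Tubb5 (14.6), Tuba1a (10.6) and Vim (8.28). Neighbours whose mean ± SD ranges overlapped were Tmsb4x with Actb, Tuba1b with Tubb4b, and Tuba1a with Vim. In the miR-206 libraries the order was Actb (22.8 CPM per kb), Tmsb4x (15.2), Actg1 (5.36), Tuba1c (3.78), Tuba1b (3.43), Tuba1a (2.93), Tubb4b (2.72), Tubb5 (1.51), Vim (1.02) and Tubb2a (0.954). There, the ranges of all neighbours overlapped except those of Tmsb4x and Actg1. Actb and Tmsb4x thus led in both groups, while Tubb2a stood in the sixth place in the controls and in the last place in the miR-206 libraries.

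Counts of several of these genes may be split among near-identical copies, and the counting method is not given in the sources used here. Of all 50-base windows in their annotated transcripts, 75.5% in Tuba1a, 75.1% in Tuba1b and 52.7% in Tuba1c also occurred in transcripts of another gene. The values were 49.6% for Tubb2a (mostly Tubb2b), 41.3% for Tubb4b (mostly the pseudogene Tubb4b-ps1), 37.4% for Actg1 (mostly the pseudogene Gm12715) and 9.12% for Actb. For Tubb5 the share was 0.0892%, and Vim and Tmsb4x shared no window. The levels of the single alpha-tubulin genes, and of Tubb2a, Tubb4b and Actg1, are therefore uncertain in a way that those of Tubb5, Vim and Tmsb4x are not.

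Distance from the background differed widely among the 10 genes in the miR-206 libraries. Actb was at 24.6 to 42.6 times the level expected from the receptor genes for its exon length, and Tmsb4x at 16.6 to 27.6 times. The alpha-tubulins were at 3.36 to 6.43 times, Actg1 at 4.54 to 10.3 times and Tubb4b at 2.44 to 4.88 times. Tubb5 (1.21 to 2.90 times), Vim (1.02 to 1.90 times) and Tubb2a (0.912 to 1.92 times) were close to the background itself. In the controls the same genes were at 13.5 times (Vim in control 1) to 2606 times (Tmsb4x in control 3) the background. The receptor genes themselves had a median log2 fold change of 1.68, and 393 of 793 tested rose and 1 fell.

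**Figure D2:**
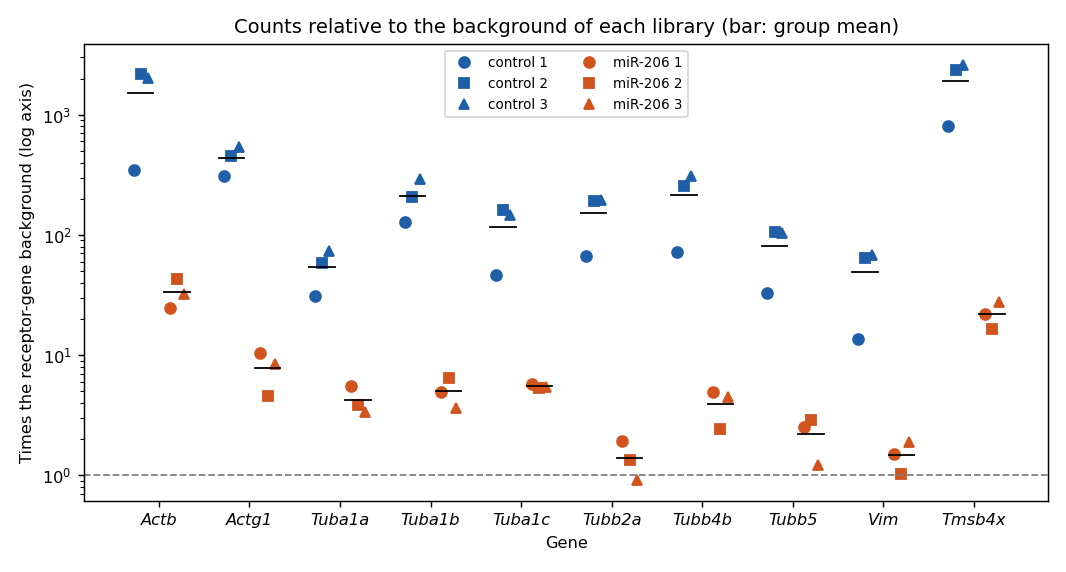
Counts of each gene divided by the count expected from the receptor-gene background of that library, on a log axis; points are libraries, bars group means (n = 3), and the dashed line marks the background. Tubb2a, Vim and Tubb5 lie within 3 times the background in all 3 miR-206 libraries, and Actb and Tmsb4x lie at 16.6 times or more.

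Fold changes of the members depended on what the libraries were scaled to. With libraries scaled on the 20 hepatocyte markers, 4 of the 10 fell, where 2.65% of all genes tested fell: Actg1 (log2 fold change -1.93, edgeR adjusted p = 0.0253), Tubb2a (-2.47, adjusted p = 0.0077), Tubb4b (-1.31, adjusted p = 0.0246) and Tmsb4x (-2.12, adjusted p = 0.00382). That scaling moved the median of all genes from 0.45 to 2.72, and the members' median was -1.05. The 20 markers did not move alike, with log2 fold changes of -5.33 (Tdo2) to -0.36 (Fgb) for counts as deposited. Other sets of markers were not tried. The summed member counts were 1.70%, 0.906% and 0.905% of the hepatocyte marker counts in the controls, compared with 0.195%, 0.549% and 0.323% in the miR-206 libraries. How many of all genes were lower in every miR-206 library on that scale was not counted, so these ratios are only a description. Actb had a log2 change of -0.76 ± 0.37 (SE; edgeR adjusted p = 0.096) relative to the hepatocyte markers, Tuba1c -0.04 and Tuba1a 0.43, none of which passed.

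After the background was subtracted and protein-coding genes at 10 or more times the background on average were kept, 6402 genes remained. All 10 members passed this filter, 8 of them only through the control group, since their mean over the miR-206 libraries was under 10 times the background; the exceptions were Actb and Tmsb4x. Genes that pass in this way are by construction further above the background in the controls than in the miR-206 libraries, so the count of members that fell in this fit, 4 of 10 where 20.3% of all genes fell, is a description and supports nothing. The 4 were again Actg1 (-1.82, edgeR adjusted p = 0.0406), Tubb2a (-3.98, adjusted p = 0.00789), Tubb4b (-1.49, adjusted p = 0.019) and Tmsb4x (-1.97, adjusted p = 0.00706). With both steps together, under the same filter, those 4 genes fell, where 18.2% of all genes fell. Of the 4, Tmsb4x alone passed the filter in both groups. The Tubb2a value after subtraction rests on miR-206 counts at or near the background, so its size is poorly determined. Tuba1a had log2 fold changes of 0.30 after subtraction and 0.10 with both steps. Where the minimum was set on mean counts instead, an alternative chosen after seeing the data, 2 members fell, Tubb2a and Tmsb4x, where 15.5% of all genes fell. With miR-206 libraries 2 and 3 both left out, which had the highest mitochondrial shares, no member and no other gene passed the adjusted threshold in edgeR, and all 10 members were lower at an unadjusted p under 0.05 (5086 genes, or 17.4%, fell and 2318 rose at that unadjusted level). That fit has 1 miR-206 library, assumed to vary as the controls do.

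**Figure D3:**
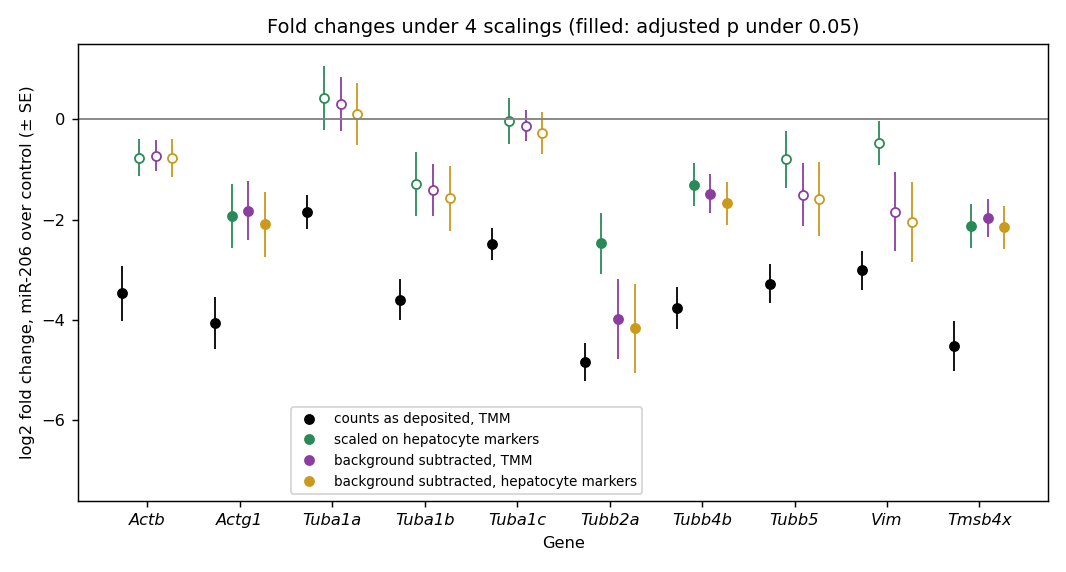
log2 fold change (miR-206 over control, ± SE) of each gene under 4 scalings; filled points have an edgeR adjusted p under 0.05. All 10 are filled for counts as deposited, and Actg1, Tubb2a, Tubb4b and Tmsb4x are filled under all 4.

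Shares within a family do not depend on library scaling. They do depend on the background and, for genes with shared windows such as the alpha-tubulins, on a counting method that is not given. Among the alpha-tubulin members, Tuba1a made up 15.2%, 13.8% and 14.4% of the counts per kb in the controls, compared with 34.2%, 24.8% and 27.0% in the miR-206 libraries. Tuba1b made up 62.1%, 48.4% and 57.3% against 30.5%, 41.3% and 29.1%. For both genes the groups did not overlap, and the mean differed by 14.2 and -22.3 percentage points. Tuba1c made up 29.6% ± 7.61 and 37.7% ± 5.41 (SD, n = 3), with overlapping groups. Among the beta-tubulin members, Tubb2a made up 38.7%, 34.6% and 32.0% in the controls, compared with 20.6%, 20.0% and 13.8% in the miR-206 libraries, again without overlap, a difference of -17.0 percentage points. Tubb4b (46.5% ± 4.53 against 52.3% ± 15.6) and Tubb5 (18.4% ± 1.32 against 29.6% ± 12.8) overlapped between groups (SD, n = 3).

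Actb made up 52.9%, 82.9% and 78.8% of the actin members in the controls, compared with 70.5%, 90.4% and 79.5% in the miR-206 libraries, a difference of 8.53 percentage points within overlapping groups. Without control library 1 the difference was -0.78 points. An exact two-sided permutation test of 3 against 3 libraries cannot go below p = 0.1. Tuba1a, Tuba1b and Tubb2a reached that value (0.233 after adjustment over the 7 shares), Tuba1c and Tubb5 had p = 0.3, and Actb and Tubb4b had p = 0.6 in the same exact permutation test. Counting error alone was wide in the miR-206 libraries: the Tubb2a share of raw counts in library 3 had a 95% Wilson interval of 5.09% to 18.3%. The miR-206 shares of Tubb2a and Tubb5 also include counts near the background level given above. With the background subtracted, the difference was -27.3 points for Tubb2a, 18.4 for Tubb4b and 8.87 for Tubb5. For Tuba1a, Tuba1b and Tuba1c it was then 13.1, -22.6 and 9.44 points. From raw counts, with no division by length, that for Tubb4b was 1.58 points.

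**Figure D4:**
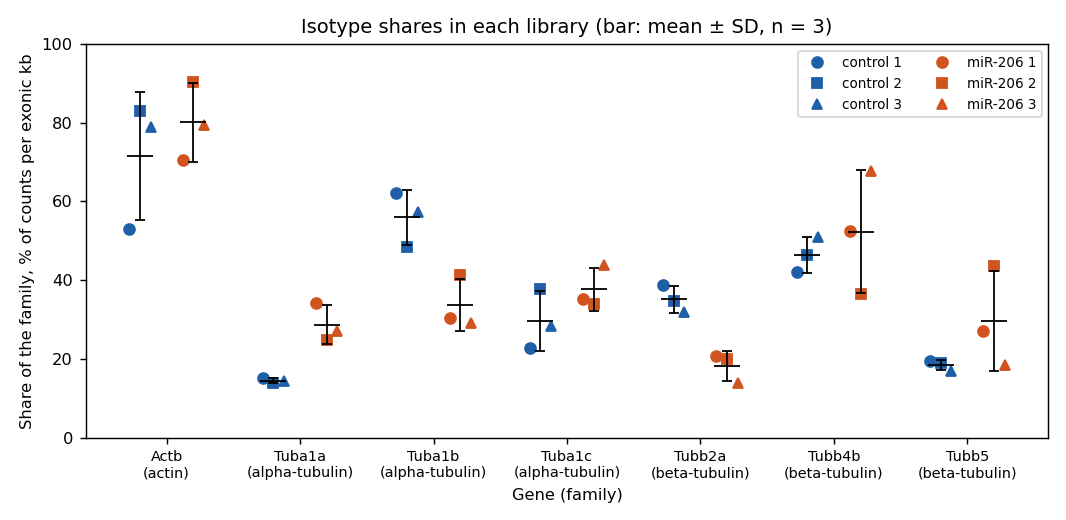
Share of each gene in the counts per exonic kb of its family within each library; points are libraries, bars the mean ± SD (n = 3). Tuba1a is higher and Tuba1b and Tubb2a are lower in all 3 miR-206 libraries than in any control library; the other shares overlap.

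Promoters of the members (250 bases before to 50 after the start site, RefSeq, GRCm38.p6) were found for 9 of the 10 genes, all but Actb, which was not searched. Each of the 9 was searched on both strands for the CArG box bound by serum response factor, a known activator of actin genes, for CCAAT (the CCAAT box), for GGGCGG (the GC box bound by Sp1) and for TATAAA (the TATA box). Matches to different motifs may overlap. Among these 9, Actg1 alone had a CArG box, which 1.63% of 32851 promoters contained. It is shown in capitals because actin genes are textbook targets of that factor (chr11:120348566-120348595, minus strand, written 5′ to 3′ along the gene).
Actg1 promoter: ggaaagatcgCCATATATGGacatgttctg
CCAAT occurred in 6 of the 9 promoters and in 37.4% of all, GGGCGG in 7 and in 35.7% of all, and TATAAA in 3 and in 13.6% of all. The TATAAA matches lay before the start site in Tubb2a (base -29) and Vim (base -32) but after it in Tubb4b (base 19). Nothing follows from these matches about binding of a factor.

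Genes that act on actin fell in most cases. Of 61 actin regulators, crosslinkers and non-muscle myosin chains, all tested, 55 fell, 1 rose and 5 did not pass. Over all genes tested, 29.6% fell and 25.8% rose. The median log2 fold change of the list was -2.82, but 32 of the 61 were under 3 times the background in the miR-206 libraries. The smallest p-values belonged to Coro1b (coronin 1B, which acts at branched actin), Flna (filamin A, an actin crosslinker) and Myl12a (a regulatory light chain of non-muscle myosin). Coro1b fell from 107 ± 10.3 to 4.72 ± 0.691 CPM, Flna from 102 ± 24.4 to 5.76 ± 1.19 CPM and Myl12a from 115 ± 11.6 to 8.12 ± 0.716 CPM (SD, n = 3). Their edgeR adjusted p was 0.000271 in each case. In the miR-206 libraries Coro1b was at 2.17 times the background and Flna at 0.906 times, a level at which the size of a fold change is poorly determined. The single gene that rose was Vil1 (villin, a microvillus protein), from 2.56 ± 1.02 to 7.18 ± 1.77 CPM (SD, n = 3, edgeR adjusted p = 0.0182), at 2.86 times the background. Its log2 fold change was 1.49, where the receptor genes that set the background had a median of 1.68.

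A seed match for miR-206 was present in the UTR of 10 of these 61 genes: Capg, Tpm2, Tpm3, Tpm4, Myl12a, Coro1c, Wasf2, Twf1, Tagln2 and Cdc42. All 10 fell, with log2 fold changes from -3.94 (Tpm2) to -1.60 (Tpm3) and a median of -2.82. Of the 51 without a match, 45 fell, and their median was -2.82 too. The difference between the 2 groups of genes was not tested. Some of these fold changes are poorly determined: Tpm2 was at 0.211 times the background in the miR-206 libraries, whereas Cdc42 was at 7.01 times. In the list of microtubule genes described next, Map4 and Kif3a had a match: Map4 fell, with a log2 fold change of -0.93 (edgeR adjusted p = 0.0367), and Kif3a had -1.15 (adjusted p = 0.0579), which did not pass.

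Of 33 other tubulins, motors and microtubule-associated genes, 32 were tested, of which 24 fell, 1 rose and 7 did not pass. Of all genes tested, 29.6% fell and 25.8% rose. The median of the list was -1.66, but 26 of the 33 were under 3 times the background in the miR-206 libraries. Dctn1 and Actr1a, subunits of the dynactin complex, and Dynll1, a dynein light chain, had the smallest p-values. In the miR-206 libraries they were at 0.785, 2.27 and 2.61 times the background, so the sizes of their falls are poorly determined. Dctn1 fell from 30.4 ± 0.589 to 3.61 ± 0.665 CPM, Actr1a from 55.0 ± 13.2 to 6.76 ± 0.440 CPM and Dynll1 from 44.6 ± 2.48 to 6.96 ± 0.707 CPM (SD, n = 3; edgeR adjusted p = 0.000271, 0.000286 and 0.000286). Map1b, a microtubule-associated protein best known from neurons, was the gene that rose, from 5.62 ± 2.63 to 15.2 ± 1.91 CPM (edgeR adjusted p = 0.0109), at 1.40 times the background in the miR-206 libraries. Its log2 fold change was 1.44, below the median of 1.68 of the receptor genes that set the background.

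Actin and tubulin are folded by the chaperonin CCT with its partner prefoldin, and tubulin pairs are then built by the tubulin cofactors. Of 20 such genes, 17 fell, none rose and 3 did not pass, where 29.6% of all genes tested fell and 25.8% rose. The median of the list was -2.90, and 6 of the 20 were under 3 times the background in the miR-206 libraries. Pfdn1 and Pfdn5, prefoldin subunits, fell from 38.6 ± 8.76 to 2.78 ± 0.722 CPM and from 92.1 ± 33.0 to 5.91 ± 0.957 CPM, and Tbcb, a tubulin cofactor, from 37.4 ± 3.45 to 5.46 ± 1.00 CPM (SD, n = 3; edgeR adjusted p = 0.000271, 0.000281 and 0.000281).

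Among 13 other intermediate filament genes, 7 fell, 1 rose and 5 did not pass, where 29.6% of all genes tested fell and 25.8% rose. The median of the list was -2.16, but 10 of the 13 were under 3 times the background in the miR-206 libraries. The hepatocyte keratins Krt8 and Krt18 fell together, Krt8 from 213 ± 47.8 to 15.8 ± 1.46 CPM and Krt18 from 176 ± 45.8 to 13.8 ± 1.42 CPM (SD, n = 3; edgeR adjusted p = 0.000294 and 0.000297). Both were at over 10 times the background in the miR-206 libraries, 11.6 and 13.8 times on average. Krt19, a keratin of bile duct cells, had 154, 47.0 and 60.2 CPM in the controls, compared with 5.76, 2.16 and 3.76 CPM in the miR-206 libraries (edgeR adjusted p = 0.00039). Its high value in control library 1 came with a sum of 6 bile duct cell markers of 3047 CPM there, against 855 and 1056 CPM in the other controls and 35.9 to 96.7 CPM in the miR-206 libraries. Krt19 is itself 1 of the 6, and Spp1 (osteopontin) alone had 2758 of the 3047 CPM. Epcam, another of the 6, had 13.6, 6.27 and 11.2 CPM in the controls. Control library 1 was also the highest control for Actg1, Tuba1a, Tuba1b, Krt8 and Krt18. It was the lowest control for the remaining members, Actb, Tuba1c, Tubb2a, Tubb4b, Tubb5, Vim and Tmsb4x. Synm (synemin) rose from 2.68 ± 0.725 to 6.38 ± 1.33 CPM (SD, n = 3, edgeR adjusted p = 0.0287), at 1.19 times the background. Its log2 fold change was 1.25, where the receptor genes that set the background had a median of 1.68.

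The counts in these 4 lists also depended on the scaling. Scaled on the hepatocyte markers, where 2.65% of all genes fell and 63.9% rose, 10 of 61 actin regulators fell and 8 rose, 2 of 32 microtubule genes fell and 9 rose, 5 of 20 folding genes fell and 2 rose, and 2 of 13 intermediate filament genes fell and 6 rose. The medians were -0.37, 0.88, -0.34 and 0.26 in that order, so those of the microtubule and intermediate filament lists changed sign, whereas none of the 10 members rose under that scaling. With the background subtracted, under the filter described above and again only as a description, 20.3% of all genes fell and 18.5% rose; there, 19 of 51 actin regulators fell and 2 rose, 6 of 21 microtubule genes fell and 3 rose, 6 of 17 folding genes fell and 1 rose, and 3 of 6 intermediate filament genes fell with none that rose.

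**Figure D5:**
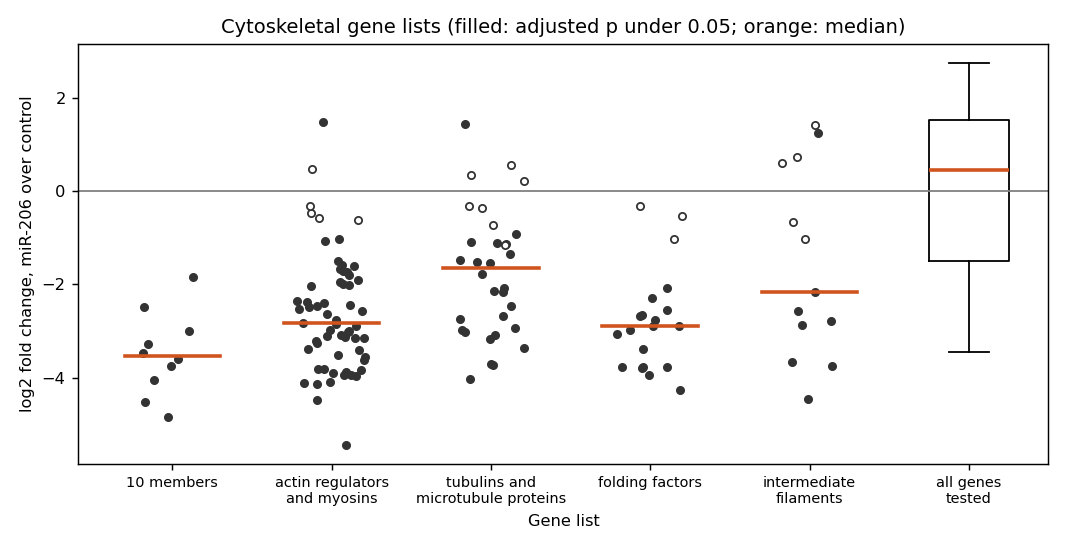
log2 fold change (miR-206 over control, counts as deposited) of the 10 members and the 4 companion lists; points are genes, filled where the edgeR adjusted p was under 0.05, and orange lines are medians. The box on the right gives all 24382 genes tested (median, quartiles, and whiskers at the 5th and 95th percentiles), whose median of 0.45 lies above the 5 list medians of -3.53 to -1.66.

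Across the 6 libraries the members followed one another. Each member's log2 CPM had a Pearson r with the mean of the other 9 of 0.957 (Actb) to 0.997 (Tuba1c). The libraries form 2 groups, so these values are set largely by the difference between them. Among 11245 named genes with a mean of at least 5 CPM, the genes most like the members' mean profile over the 6 libraries were Aldoa (aldolase A, a glycolytic enzyme), Kmt2d (a histone methyltransferase), Idh2 (mitochondrial isocitrate dehydrogenase), Psmb10 (an immunoproteasome subunit) and Tns1 (tensin 1, which links actin to adhesions), with r from 0.9991 to 0.9998. The 5 were picked as the highest of the 11245, and their r values, too, are set largely by the difference between the groups. Aldoa had 261, 305 and 312 CPM in the controls, compared with 13.8, 11.0 and 12.5 CPM in the miR-206 libraries.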

How the data were processed

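The authors deposited raw counts of reads per Ensembl gene, whole numbers with no normalisation, for 6 libraries. The labels' protocols give total RNA from a micro-scale column kit and a SMARTER mRNA-Seq kit for ultra-low input. The submitters' processing notes name GRCm 38 and mm 10. Which aligner, counter, annotation and strand setting were used is "not given in the sources used here". Counts of close paralogs and of overlapping or antisense genes are uncertain for that reason. From 49315 genes, 49056 were matched to the GENCODE M21 annotation by identifier.

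Counts were filtered (filterByExpr, minimum count 10), scaled by TMM and tested with the quasi-likelihood test of edgeR 4.0.16 (robust, group alone) in R 4.3.3, with Benjamini-Hochberg adjustment over all genes tested and a threshold of 0.05. CPM are counts over TMM-scaled library size; those per kb are divided by exon length. Background is the receptor genes' counts per exonic kb times exon length. Isotype shares were compared by an exact permutation test (SciPy 1.17.1). Wilson intervals (95%) and the limits for 0 counts describe only counting error, because these reads carry no molecular identifiers and several can come from 1 molecule. The genes named are the 10 members, the 3 with the smallest p in each companion list, the 5 most alike, and single genes that rose or had a seed match, these last chosen after their values were seen. Members and lists were chosen with earlier results of these data known.

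Alternatives were other scalings, no filter, DESeq2 1.42.0, mitochondrial genes left out, background subtraction, the replicate number as a block and each library left out. Deviations from the group mean correlated at 0.01, 0.02 and -0.01 between same-numbered libraries. With 3 libraries per group that differ in mitochondrial share and background, these values cannot show whether the numbers pair libraries of 1 mouse.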

Additional observations from a re-analysis of the deposited data

How the results depend on the processing

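With RLE or upper-quartile factors, no filter on low counts, DESeq2, mitochondrial genes left out, or any 1 library left out, 10 of 10 members fell. Of all genes tested, 30.8% fell with RLE factors, 19.7% with upper-quartile factors, 17.9% with no filter and 17.8% with DESeq2. The share was 29.2% with mitochondrial genes left out and 22.3% to 34.7% with 1 library left out. With library size alone 9 members fell, where 15.7% of all genes tested fell. The exception was Tuba1a (log2 fold change -0.77). Over the 19 settings tried, Tubb2a and Tmsb4x fell in 18. Members that fell numbered 4 when scaled on hepatocyte markers, 4 with the background subtracted, 4 with both, 2 with the minimum on mean counts and 0 without miR-206 libraries 2 and 3; the last 3 settings were added after seeing the data. Tuba1a changed sign in the first 4 of these, to 0.43, 0.30, 0.10 and 0.58, and Tuba1c in the fourth, to 0.15; none of these values passed, and the cause was not tested.

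Of all genes, 6289 rose and 7213 fell as deposited. With upper-quartile factors 10629 rose and 4812 fell, with library size alone 11570 and 3823, scaled on hepatocyte markers 15592 and 646, with the background subtracted 1187 and 1300, with the minimum on mean counts 804 and 648, with both steps 812 and 1162, and without miR-206 libraries 2 and 3 0 and 0. Subtraction tested fewer genes; otherwise the cause was not tested. Leaving out 1 library, 1917 (without miR-206 library 3) to 10664 (without control library 1) genes rose and 6203 to 8861 fell; without control library 3, miR-206 library 1 or miR-206 library 2, 4185, 2110 and 2969 rose. With the replicate number as a block, 5362 genes rose, 6696 fell and 10 of 10 members fell. Whether the numbers pair libraries of the same mouse is not known.

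Leaving out 1 library, the difference in the Actb share ran from -0.78 to 14.2 points (negative without control library 1) and that of Tubb4b from -1.99 to 13.7 points (negative without miR-206 library 3). That of Tubb5 ran from 4.24 (without miR-206 library 2) to 16.8 points (without miR-206 library 3), and that of Tuba1c from 4.64 (without control library 1) to 12.2 points (without control library 2; 4.98 without miR-206 library 3). Depth limits Tubb2a most, at 8 to 17 counts in the miR-206 libraries.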
